A study of Mus musculus with 38 samples.

Results

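Replication-dependent histone genes were examined in RNA sequencing data from intestinal epithelial cells of mice. The set was taken as every row of the gene count files whose gene name starts with Hist1, Hist2, Hist3 or Hist4. This gave 71 of 46078 rows, under 70 gene names, because Hist2h2bb names a pair of rows. By name, 6 of the rows belong to the linker histone H1 and 20 to the core histone H2A. A further 20 belong to H2B, 12 to H3 and 13 to H4. The Hist1 cluster on chromosome 13 holds 56 of the 71, the Hist2 cluster on chromosome 3 holds 11 and the Hist3 cluster on chromosome 11 holds 3. The remaining member, Hist4h4, lies on chromosome 6.

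Replication-dependent histone genes supply the proteins that package newly copied DNA, and are transcribed mainly in S phase. H2A, H2B, H3 and H4 form the core around which DNA is wound, and H1 binds the linker between cores. Their mRNAs usually carry no poly(A) tail: they end shortly after a conserved stem-loop that is bound by SLBP and cut with the help of the U7 small nuclear RNA. Some of these genes can also give polyadenylated transcripts that run past the stem-loop, which is known from differentiated cells. In the intestine, S phase is found mainly in the crypts, where epithelial cells divide before they differentiate.

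The study compared Hk2ΔIEC mice, called KO here, with littermate Hk2fl/fl mice, called WT, both on the C57BL/6 strain. KO mice carry the same floxed Hk2 allele and a Cre recombinase under the Villin promoter, which is active in the intestinal epithelium, so cells of other kinds keep Hk2. Colitis was induced in male mice aged 10 to 12 weeks with 1.5% dextran sodium sulfate (DSS) in the drinking water, and cells were taken after 3 days (7 WT and 8 KO libraries) or 7 days (7 WT and 7 KO). Untreated day 0 mice gave 4 WT and 5 KO libraries. For basal phenotyping the labels give either 9 to 11 weeks of age or a span from 86 up to 92 weeks, and they do not say which the day 0 mice had. Colon tissue is named in the series text and isolated epithelial cells in the labels. Each library has its own number in the labels, which name no pooling. The p-values therefore measure the spread between libraries.

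Total counts were 25.2 M to 60.6 M in the 29 libraries of days 3 and 7, and 10.5 M to 44.9 M in the 9 of day 0. The level of 3 counts, taken as the floor of a library, was 0.0495 to 0.286 CPM (counts per M counts). Levels below are CPM scaled with TMM factors, and a level per kilobase is the CPM divided by the exon length in the files. All 8 epithelial markers listed (Epcam and Vil1 among them) were above 3 counts in every group, and their summed level was 10368 to 20499 CPM. Day 0 libraries carry another series prefix in their file names, and day 0 cannot be told apart from that library series. Mitochondrial ribosomal RNA took 6.25 to 45.6% of the count on day 0, the highest share being in d0_KO_32, and 0.352 to 3.95% on days 3 and 7. In the library labelled d3_KO_345, Hk2, the targeted gene, was at 435 CPM, against 97.0 to 220 CPM in WT on day 3. This level goes against the label, and the counts of members called are also given without this library. In d7_KO_420, Hk2 was at 268 CPM, within the 228 to 611 CPM of WT on day 7, and the day 7 counts are also given without it. On day 3, d3_KO_349, d3_KO_350 and d3_KO_388 were also within the WT range, at 120, 124 and 128 CPM. The genotypes thus overlapped in Hk2 on that day.

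The stem-loop is the shared sequence that sets these mRNAs apart, and it is shown here for members at both ends of the ranges below. In the GENCODE M21 transcript models (GRCm38 build), 44 members held the 16-base consensus, in each case in the annotated 3′ untranslated region. Outside the set, 119 of 55381 genes did (0.215%). Members whose models did not hold it need not lack it, since a model can stop at the end of the coding sequence. The commonest form, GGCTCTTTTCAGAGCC, was in 24 members, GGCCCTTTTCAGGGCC was in 7 and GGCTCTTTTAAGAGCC in 6. Each line gives the stem-loop in capitals with 5 flanking bases on either side, 5′ to 3′ on the gene's strand.
Hist1h1c: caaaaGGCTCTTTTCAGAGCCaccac
Hist1h1d: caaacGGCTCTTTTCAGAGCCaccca
Hist1h1e: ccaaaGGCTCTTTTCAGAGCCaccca
Hist3h2a: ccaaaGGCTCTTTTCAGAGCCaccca
Hist1h4i: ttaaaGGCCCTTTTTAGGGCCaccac
Hist1h4f: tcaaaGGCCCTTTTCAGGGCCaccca
Hist1h3f: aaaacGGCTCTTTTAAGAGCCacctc
The stem-loop of Hist1h1c is at chr13:23739512-23739527 on the plus strand. That of Hist1h4f is at chr13:23551291-23551306 on the minus strand. Hist1h1c, Hist1h1d, Hist1h1e and Hist3h2a share the commonest form, although they differ widely in level.

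On days 3 and 7, histone genes took a small share of the counts, and most of that share came from 2 genes. The share of the total count, with its lowest, median and highest library, was 0.0205, 0.0345 and 0.0541% in WT on day 3. It was 0.0173, 0.0282 and 0.0355% in KO on day 3. On day 7 it was 0.0138, 0.0219 and 0.0262% in WT, and 0.0120, 0.0171 and 0.02% in KO. Within each day the genotypes overlapped. Every WT library of day 3 was above every KO library of day 7, and KO on day 3 met KO on day 7 only through d3_KO_345. The highest shares on day 3 were those of d3_WT_486 and d3_WT_487, and the other 5 WT libraries lay between 0.0205 and 0.0408%. The lowest on day 3 was that of the library labelled d3_KO_345, without which KO lay between 0.0243 and 0.0355%. The 95% Wilson interval for d3_KO_345, which covers counting error only, was 0.0170 to 0.0177%.

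**Figure D1:**
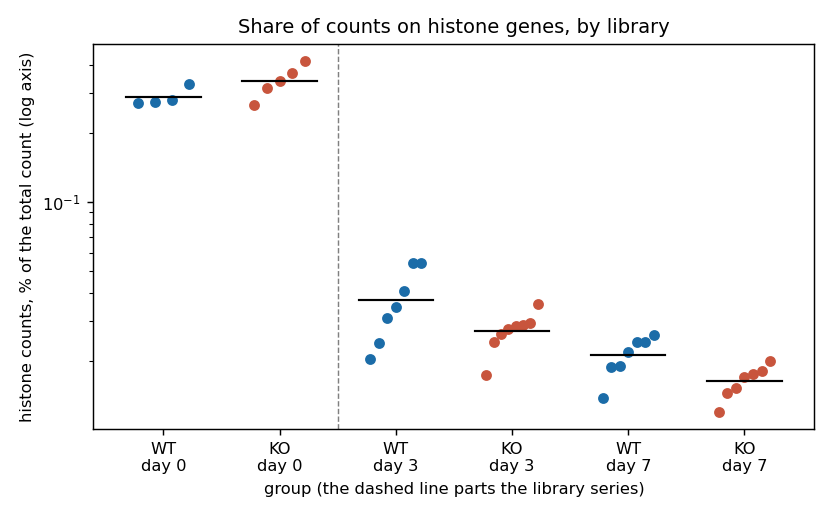
Share of the total count that fell on histone genes (y axis, %, log axis) in each library, by group (x axis). Points are libraries and lines are group means; the day 0 libraries lie between 0.266 and 0.413%, above all libraries of days 3 and 7.

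Hist1h1c, which codes for a linker histone H1, was the leading member. It gave a median of 58.5% of the histone counts over the 29 libraries of days 3 and 7 (44.9 to 71.6%). With Hist1h2bc, which codes for an H2B, the median share of the histone counts was 87.5%, and with Hist2h2be (H2B), Hist1h4i (H4) and Hist3h2a (H2A) it was 94.3%. Per kilobase the leading pair had similar mean levels, 95.9 CPM for Hist1h1c and 94.9 CPM for Hist1h2bc. Hist1h4i followed at 5.83 CPM per kilobase, Hist2h2be at 3.12, Hist1h2bg (H2B) at 2.49 and Hist1h1d (H1) at 2.24. Of the 71 members, 8 had a mean of at least 1 CPM on these days, and 15 had 3 counts or fewer in every one of these libraries.

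The classes were unequal on days 3 and 7. H1 made up a median of 59.5% of the histone counts and H2B 35.3%, while H4 made up 3.18%, H2A 1.89% and H3 0.670%. The 12 H3 rows together had a summed level of 0.667 to 2.52 CPM per library. Core histones are used in equal numbers in chromatin, so the counts of the 4 core classes do not stand in the ratio of their proteins. The classes leave out the replication-independent histones, whose list summed to 1136 to 1897 CPM on these days. They also leave out reads that match several genes. H1 had its highest share of the histone counts, 72.2%, in d7_KO_420. That library also had the lowest level of Hist2h2be, 2.83 CPM.

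Levels of the leading members overlapped between WT and KO on day 3. Hist1h1c was at 108, 201 and 318 CPM (lowest, median and highest) in WT and at 84.8, 174 and 208 CPM in KO. Hist1h2bc was at 67.5, 75.0 and 135 CPM in WT and at 60.3, 72.6 and 83.1 CPM in KO. For both genes the highest libraries were WT and the lowest was the library labelled d3_KO_345. Hist1h4i was at 4.15, 5.18 and 8.08 CPM in WT and at 3.26, 3.64 and 4.41 CPM in KO. Its groups met only at the edge, between the lowest WT and the highest KO library.

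**Figure D2:**
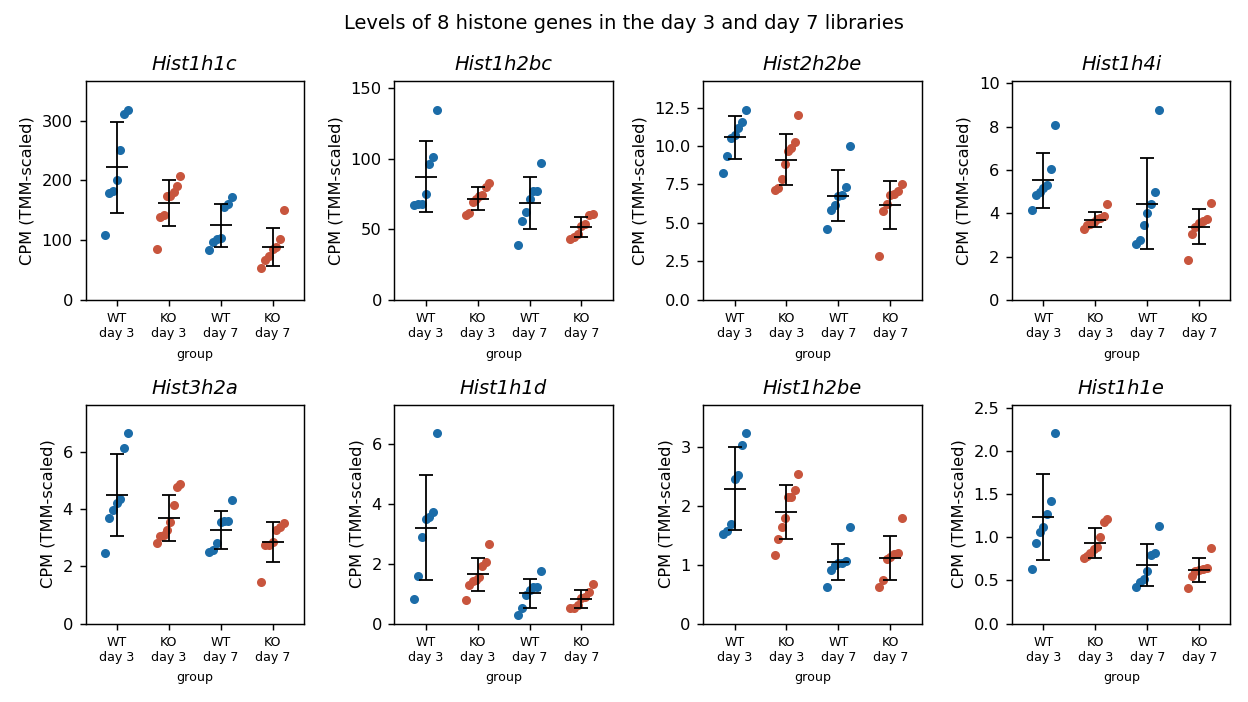
TMM-scaled level (y axis, CPM, linear from 0) of 8 histone genes in each day 3 and day 7 library, by group (x axis); points are libraries, and bars are the mean ± SD. Hist1h1c has means of 222 and 162 CPM on day 3 and of 125 and 88.6 CPM on day 7, in WT and KO, and within each day WT and KO overlap for every gene shown.

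The comparison of KO with WT during colitis called no histone gene. On day 3, 23 members passed the filter on low counts and 0 had an adjusted p under 0.05 in the edgeR quasi-likelihood test, where 0.00647% of the 15461 genes tested were called. At an unadjusted p under 0.05 there were 9, against 7.88% of all genes tested. The DESeq2 Wald test called 0 members too, with 13 of 62 at an unadjusted p under 0.05, against 5.49% of the genes it tested. Of the 23 log2 fold changes, 21 were negative, with a median of -0.46 against -0.0045 over all genes tested. Without the library labelled d3_KO_345 the median was -0.42, with 8 members at an unadjusted p under 0.05 against 6.06% of genes. Without d3_WT_486 and d3_WT_487 it was -0.34, with 5 members against 3.51%. Without d3_WT_346, 16 members were at an unadjusted p under 0.05 against 13.1% of genes, so this count moved with single libraries, while 0 members were called in each of these fits.

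By class, all 9 H4 genes tested on day 3 had negative values (-1.06 to -0.37), as did the 4 H1, the 6 H2B and the 2 H2A genes. The 2 H3 genes tested, Hist1h3d and Hist2h3c2, had values of 0.16 and 0.09. The smallest p was that of Hist1h4i, whose WT libraries averaged 5.52 ± 1.27 CPM (SD, n = 7) and whose KO libraries averaged 3.70 ± 0.347 CPM (SD, n = 8). Its log2 fold change was -0.57 (SE 0.13, adjusted p 0.623 by edgeR), so it did not pass the test. Hist1h4n followed, at -1.06 (SE 0.32), then Hist1h4c, another H4 gene, at -0.62 (SE 0.20), both with the same edgeR adjusted p of 0.623. Without the library labelled d3_KO_345, these values were -0.56 for Hist1h4i, -1.08 for Hist1h4n and -0.55 for Hist1h4c, and none passed the threshold over all genes.

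On day 7, 22 members were tested between genotypes and 0 were called, against 0.00642% of 15584 genes. At an unadjusted p under 0.05 there were 4, against 12.9% of all genes. The DESeq2 Wald test also called 0 members, with 6 of 61 at an unadjusted p under 0.05, against 8.93% of the genes it tested. Of the 22 values, 18 were negative, with a median of -0.28. Without d7_WT_386 the median was -0.14, with 1 member at an unadjusted p under 0.05, against 11.3% of genes. Leaving out each library in turn gave 1 to 4 such members, against 8.58 to 23.7% of genes. Without d7_KO_420, 0 were called and the median was -0.24. Hist1h1c was at 83.4, 104 and 172 CPM in WT and 53.6, 85.1 and 151 CPM in KO (lowest, median and highest). Its log2 fold change was -0.50 (SE 0.22, adjusted p 0.371 by edgeR). Hist1h2bc was at 38.6, 71.7 and 96.6 CPM in WT and 43.2, 52.0 and 60.5 CPM in KO, and the log2 fold change was -0.41 (SE 0.17, adjusted p 0.346 by edgeR). In both genes the WT range reached higher, and the groups overlapped. The smallest p was that of Hist1h1b, an H1 gene near the floor, whose WT libraries averaged 0.423 ± 0.232 CPM and whose KO libraries averaged 0.190 ± 0.0833 CPM (SD, n = 7 each). Its log2 fold change of -1.10 (SE 0.39, adjusted p 0.313 by edgeR) did not pass the test.

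Between day 3 and day 7, 7 members fell in WT and 7 fell in KO. No member rose, where 10.6% of all genes in WT and 10.5% in KO were called higher. In WT, 23 members were tested, and the 7 called lower compare with 8.7% of 15541 genes called lower. Over all 23 the median log2 fold change was -0.48, against 0.01 over all genes tested. In KO, 21 members were tested, and the 7 called lower compare with 8.83% of 15568 genes. The median over the 21 was -0.51, against -0.01 over all genes tested. The genes called were Hist1h1c, Hist1h1d, Hist1h1e, Hist1h2be and Hist2h2be in both genotypes, with Hist1h4h and Hist1h4j in WT and Hist1h2bc and Hist1h3d in KO. A test of the difference between genotypes, given after the single genes, called none of them. Some calls lay near the threshold and were lost when 1 library was left out. In WT, Hist1h1e was lost in 9 of the 14 fits that leave out 1 library, and held without d3_WT_346, d3_WT_381, d7_WT_370, d7_WT_386 or d7_WT_393. Hist1h4h was lost in 11 of 14, and held without d3_WT_348, d7_WT_386 or d7_WT_393. In KO, Hist1h3d was lost in 8 of 15 fits, those without d3_KO_350, d3_KO_385, d3_KO_387, d3_KO_392, d7_KO_367, d7_KO_420, d7_KO_421 or d7_KO_423. Hist2h2be was lost in 3, those without d3_KO_349, d3_KO_351 or d3_KO_392. The other calls held in every such fit. A gene can pass the filter on low counts through 1 day alone, which near the floor favours a lower level on the other day. Hist1h4j was at 0.356 to 0.932 CPM on day 3 and 0.129 to 0.409 CPM on day 7 in WT, so its call is description only. The medians over members share this limit.

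Among the linker histone genes, Hist1h1c, Hist1h1d and Hist1h1e fell in both genotypes. Hist1h1c had a log2 fold change of -0.85 (SE 0.23, adjusted p 0.0183 by edgeR) in WT and -0.91 (SE 0.21, adjusted p 0.00546 by edgeR) in KO. Hist1h1d had the largest change of the members called in WT. It was at 0.822, 3.51 and 6.36 CPM on day 3 and at 0.289, 1.12 and 1.74 CPM on day 7 in WT (lowest, median and highest). The days overlapped through the lowest day 3 libraries, and the log2 fold change was -1.71 (SE 0.41, adjusted p 0.00914 by edgeR). In KO, Hist1h1d was at 0.790, 1.49 and 2.66 CPM on day 3 and at 0.507, 0.854 and 1.31 CPM on day 7, and changed by a log2 value of -1.04 (SE 0.27, adjusted p 0.0108 by edgeR). Hist1h1e, at a mean of 1.24 CPM on day 3 and 0.680 CPM on day 7 in WT, changed by -0.91 (SE 0.29, adjusted p 0.0361 by edgeR). In KO it changed by -0.64 (SE 0.18, adjusted p 0.0166 by edgeR), and the adjusted p was 0.0532 where all 29 libraries shared 1 edgeR fit.

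Of the H2B genes, Hist2h2be fell from 10.6 ± 1.39 to 6.77 ± 1.66 CPM (SD, n = 7 each) in WT, a log2 fold change of -0.66 (SE 0.15, adjusted p 0.00766 by edgeR). In KO it fell from 9.12 ± 1.68 (SD, n = 8) to 6.16 ± 1.57 CPM (SD, n = 7), a log2 fold change of -0.60 (SE 0.18, adjusted p 0.0281 by edgeR). Hist1h2be, at 1.53, 2.45 and 3.23 CPM on day 3 and 0.623, 1.03 and 1.64 CPM on day 7 in WT, changed by -1.16 (SE 0.24, adjusted p 0.00338 by edgeR). For both genes the days overlapped at the edge only. Hist1h2bc fell in KO from 60.3, 72.6 and 83.1 CPM to 43.2, 52.0 and 60.5 CPM, a log2 fold change of -0.51 (SE 0.10, adjusted p 0.00129 by edgeR). In WT its value was -0.37 (SE 0.20, adjusted p 0.223 by edgeR), which did not pass. The H2A genes tested gave no call. Hist1h4i, the leading H4 gene, had values of -0.34 (SE 0.25, adjusted p 0.388 by edgeR) in WT and -0.16 (SE 0.15, adjusted p 0.526 by edgeR) in KO.

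**Figure D3:**
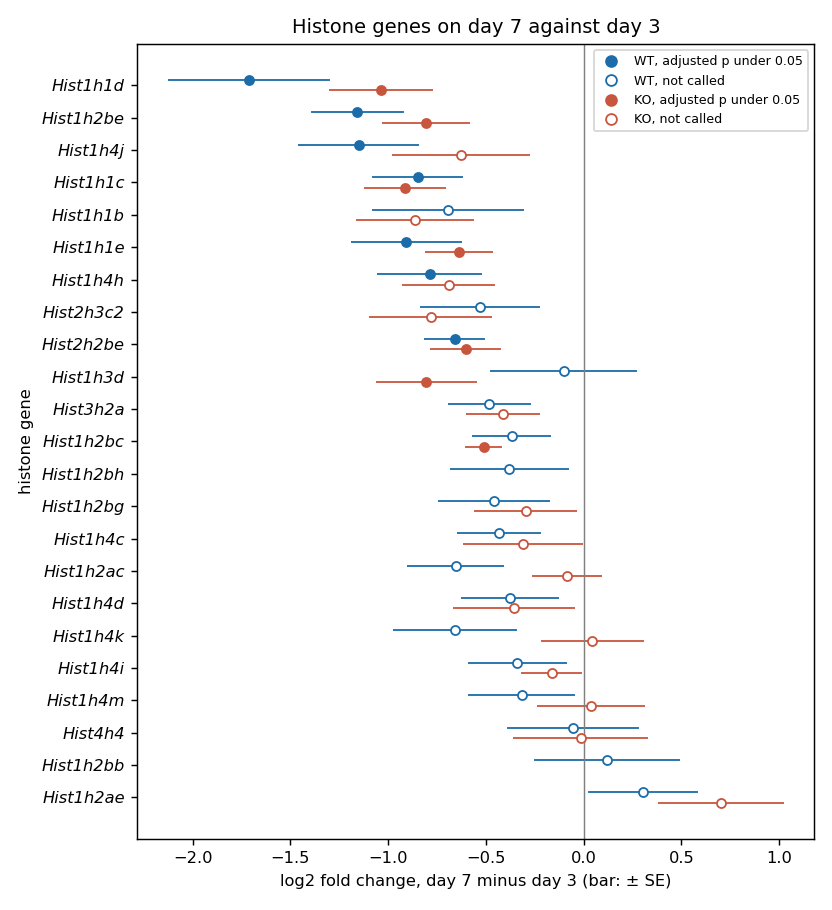
Log2 fold change on day 7 against day 3 (x axis, bars ± SE) for each histone gene tested (y axis), in WT and KO; filled points have an edgeR adjusted p under 0.05. All 7 filled points in WT and all 7 in KO lie below 0, from Hist1h1d at -1.71 in WT to Hist1h2bc at -0.51 in KO.

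The size of the day difference in WT rested in part on d3_WT_486 and d3_WT_487, the libraries with the highest histone shares. Without both, 3 members were called lower, Hist1h1d, Hist1h2be and Hist2h2be, against 5.69% of genes in that fit, and Hist1h1c had a log2 fold change of -0.60 (adjusted p 0.0951 by edgeR). Without the library labelled d3_KO_345, 8 members were called lower in KO, against 10.4% of genes. Without d7_KO_420, 6 were, against 11.2% of genes. Whether the day difference itself differed between genotypes was tested as an interaction over the 29 libraries. Of 28 members tested, 0 were called, as were 0% of the 16371 genes tested. At an unadjusted p under 0.05 there was 1, Hist1h4n, against 2.69% of all genes. The DESeq2 Wald test also called 0, with 1 at an unadjusted p under 0.05, against 2.35% of the genes it tested. Without the library labelled d3_KO_345, 27 members were tested and edgeR called 0, with 1 at an unadjusted p under 0.05, against 2.5% of genes.

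Markers of neutrophils and macrophages moved with the day. The summed level of the 6 neutrophil markers listed was 0.0178 to 1.03 CPM in WT on day 3 and 79.2 to 878 CPM on day 7. In KO it was 0.0799 to 34.5 CPM on day 3 and 31.3 to 1392 CPM on day 7. In WT on day 3, Retnlg and Mmp8 were at 3 counts or fewer in every library. The 5 macrophage markers summed to 4.47 to 9.81 CPM in WT on day 3 and 18.6 to 67.8 CPM on day 7, and in KO to 5.41 to 25.2 and 21.7 to 130.8 CPM. The 4 markers of germinal centre or proliferating lymphocytes summed to 9.68 to 15.8 CPM in WT on day 3 and 10.1 to 16.3 CPM on day 7. In KO they summed to 12.3 to 14.8 and 10.4 to 19.1 CPM. The part of other cells in the histone differences was not tested. In bulk samples, fewer cells of a type and less RNA per cell cannot be told apart.

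Genes that act on histone mRNA or in S phase were taken from fixed lists. Slbp, whose protein binds the stem-loop, was at 36.0 to 43.1 CPM in WT on day 3 and 26.4 to 46.7 CPM on day 7, and its log2 fold change of -0.24 (SE 0.12, adjusted p 0.181 by edgeR) did not pass. Npat, the coactivator of histone gene transcription, fell in both genotypes. Its log2 fold change was -0.37 (SE 0.12, adjusted p 0.0374 by edgeR) in WT and -0.30 (SE 0.09, adjusted p 0.0315 by edgeR) in KO. Of the 29 genes of histone transcription and 3′ end processing, 3 fell (Lsm11, Rprd1a and Npat) and 1 rose (Cdc25a) in WT, with a median of -0.07. Over all genes tested in WT, 8.7% were called lower and 10.6% higher. In KO, 1 fell, against 8.83% of all genes tested, with a median of -0.01. Lsm11 codes for a protein of the U7 particle, and Cdc25a for a phosphatase that drives entry into S phase.

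Of the 39 genes of DNA replication and S phase, 0 were called in WT and 0 in KO by edgeR, with medians of -0.09 and -0.04. At an unadjusted p under 0.05 there were 4 and 0, against 32.2% of all genes tested in WT and 30.6% in KO. Mki67, a marker of cycling cells, had a log2 fold change of -0.07 (SE 0.15) in WT and -0.25 (SE 0.19) in KO. Pcna, the sliding clamp of replication, had values of 0.14 (SE 0.15) and -0.02 (SE 0.07). Of the 21 histone chaperones and acetyltransferases, 0 were called in either genotype, with 0 and 2 at an unadjusted p under 0.05, against the same shares of all genes. Among the 11 replication-independent histone genes tested, H2afy2 fell in WT and H2afy rose in KO. H3f3b and H2afz, which code for the variants H3.3 and H2A.Z, were not called, with values of -0.05 and 0.17 in WT. Between genotypes, these 4 lists had 0 calls on day 3 and on day 7 by edgeR, where 0.00647 and 0.00642% of all genes were called. At an unadjusted p under 0.05, the processing list had 1 gene on day 3 and 4 on day 7, the S phase list 2 and 1, the chaperone list 1 and 2, and the replication-independent list 2 and 2. Over all genes tested, 7.88% were under this level on day 3 and 12.9% on day 7.

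In the day 0 libraries the set looked different, with 56 members at a mean of at least 1 CPM and a share of 0.266 to 0.413% of the total count. Hist1h1c was again the member with the most counts, at 604, 369, 355 and 458 CPM in WT and 616, 535, 433, 396 and 720 CPM in KO. It gave a median of 14.8% of the histone counts, and the 5 leading members (Hist1h1c, Hist1h1e, Hist1h1d, Hist1h4d and Hist1h4h) gave 40.6%. Per kilobase, the highest mean levels were those of the H4 genes Hist1h4d (517 CPM), Hist1h4c (418) and Hist1h4h (358). The H1 genes Hist1h1e (355), Hist1h1c (320) and Hist1h1d (294) followed. By class, H1 made up a median of 35.6% of the histone counts, H4 27.8%, H2B 20.3%, H3 10.4% and H2A 6.19%.

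On day 0, KO was compared with WT within the day 0 library series. Of 57 members tested, 0 were called by edgeR, against 0.0335% of 14944 genes. At an unadjusted p under 0.05 there were 41, all of them higher in KO, against 10.5% of all genes in either direction. The median log2 fold change was 0.62, and 53 of 57 values were positive. Without d0_WT_46 the 41 became 26, against 7.49% of genes. Hist4h4 had the smallest p. It was at 36.4, 32, 30.6 and 36.0 CPM in WT and at 48.8, 80.9, 43, 48.9 and 60.8 CPM in KO, so the groups did not overlap. The log2 fold change was 0.72 (SE 0.17, adjusted p 0.217 by edgeR). Hist1h1a, an H1 gene, was at 69.5, 59.0, 64.2 and 61.2 CPM in WT and at 94.4, 138.0, 81.8, 78.6 and 102.6 CPM in KO, again without overlap. The difference was 0.63 on the log2 scale (SE 0.15, adjusted p 0.232 by edgeR). For both genes d0_KO_32 was the highest library.

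That library, d0_KO_32, had 45.6% of its count on mitochondrial ribosomal RNA, against 6.25 to 13.8% in the other day 0 libraries. Without it, 0 members were called, 35 had an unadjusted p under 0.05 against 10.9% of all genes, and the median log2 fold change was 0.40. With the mitochondrial rows removed from all libraries, 0 were called and the median was 0.63. The DESeq2 Wald test called 4 members higher in KO, Hist4h4, Hist1h1a, Hist1h4a and Hist1h4j, where it called 0.573% of the genes it tested. A fit without the filter on low counts called Hist4h4. The share of the total count was 0.329, 0.280, 0.274 and 0.272% in WT and 0.368, 0.266, 0.338, 0.315 and 0.413% in KO, and d0_KO_32, whose total includes the mitochondrial counts, had the lowest share. The summed level of the 39 S phase genes was 1299 to 1658 CPM in WT and 1373 to 1952 CPM in KO on day 0. Of these genes 0 were called, with 0 at an unadjusted p under 0.05, against 10.5% of all genes tested.

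Between day 3 and day 0, nearly all members tested differed, in a comparison where time and library series are confounded and cannot be told apart. In WT, 55 of 57 members were lower on day 3, against 25.6% of 17152 genes called lower, with a median log2 fold change of -6.75. In KO, 56 of 57 were lower, against 23.7% of 16010 genes, with a median of -7.76. Without the library labelled d3_KO_345, 54 were lower, against 23.4% of genes. In the day 3 fit between genotypes 23 members passed the filter, so most of the 57 passed it here through their day 0 counts. For those, a lower level on day 3 was largely set by the filter, and the counts are description only. Members with a mean of at least 1 CPM numbered 56 on day 0 and 8 on days 3 and 7, so most entered the next count through day 0 too. In 52 of the 56 members with a mean of at least 1 CPM, every day 0 library was above every later library, against 8.21% of 14182 genes. The ratio of the day 0 mean to the mean of days 3 and 7 ran from 1.31 to 1274 over 55 of these members, with a median of 182. Over 14037 genes the median ratio was 0.949, and 123 genes had a ratio of at least 100, of which 39 were members.

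**Figure D4:**
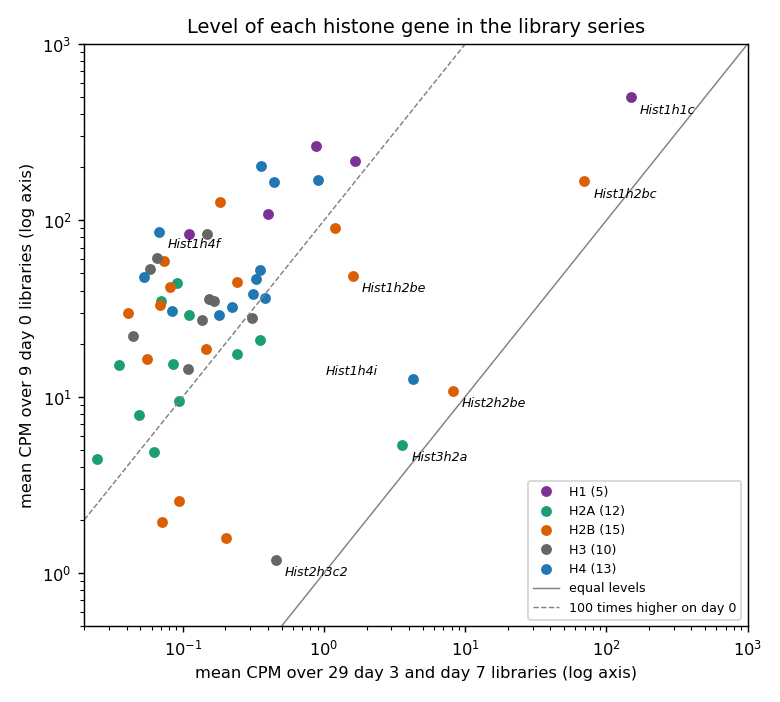
Mean level of each of 55 histone genes in the 9 day 0 libraries (y axis, CPM, log axis) against its mean in the 29 libraries of days 3 and 7 (x axis, CPM, log axis), coloured by class with the number in brackets. Most points lie above or near the dashed line of a 100 times higher level, and Hist2h2be, Hist3h2a, Hist1h2bc, Hist2h3c2, Hist1h4i and Hist1h1c lie close to the line of equal levels.

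The members with the lowest ratios were Hist2h2be (1.31), Hist3h2a (1.49), Hist1h2bc (2.38), Hist2h3c2 (2.61) and Hist1h4i (2.99), with Hist1h1c at 3.33. Hist2h2be, at 12.8, 8.07, 10.9 and 8.45 CPM in the WT day 0 libraries, overlapped the 8.25 to 12.4 CPM of WT on day 3. Its log2 fold change on day 3 against day 0 was 0.06 (SE 0.15, adjusted p 0.752 by edgeR) in WT and -0.30 (SE 0.16, adjusted p 0.132 by edgeR) in KO. The highest ratios were those of Hist1h4f (1274), Hist1h3f (939), Hist1h3b (913), Hist1h4a (891) and Hist1h2bn (804). Hist1h4f, an H4 gene, was at 56.8 to 164 CPM on day 0 and at 0 to 0.155 CPM on days 3 and 7. It had at most 8 counts in any library of days 3 and 7, and its log2 fold change on day 3 was -9.59 (SE 0.25) in WT.

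The ratios were set against how far the counted gene model runs past the stem-loop, since a longer model can count transcripts that go on beyond it. Of the 44 members with a stem-loop, 14 have a counted model that runs more than 100 bases past it, 29 end within 100 bases, and 1 ends before it. Among members with a ratio, the 13 with the longer models had a median ratio of 30.4 (1.49 to 939). The 25 whose models end within 100 bases of the stem-loop or before it had a median of 209 (59.5 to 1274). The 17 without the stem-loop in a transcript model had a median of 199 (1.31 to 804). Of all members without it, 19 have a counted length divisible by 3, as a model of the coding sequence alone would. Such a model does not reach a stem-loop, so this group need not be of genes that lack it. Hist1h1c runs 840 bases past its stem-loop, Hist3h2a 1643, Hist2h3c2 377 and Hist1h4i 330. Hist1h1d and Hist1h1e, which run 28 and 27 bases past theirs, had ratios of 131 and 305. Not every long model had a low ratio: Hist1h3f, which runs 365 bases past its stem-loop, had 939, and Hist4h4, which runs 2445, had 140.

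**Figure D5:**
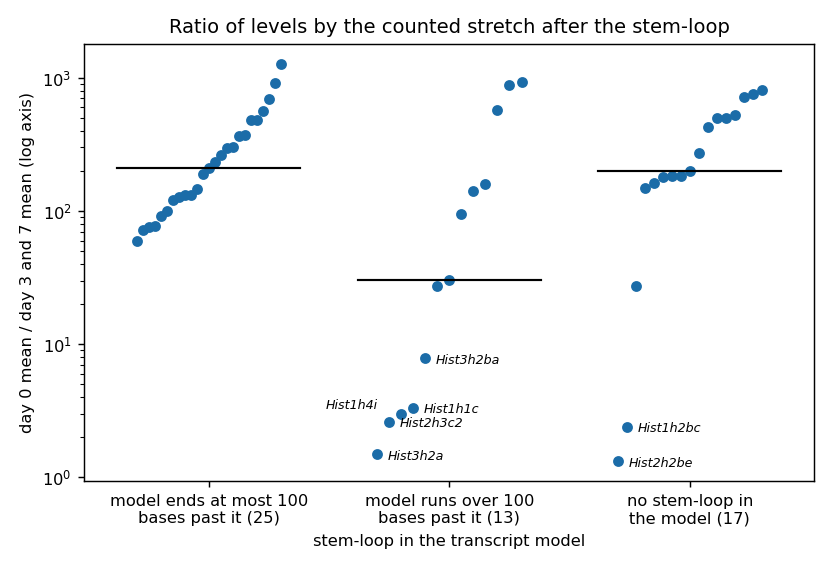
Ratio of the day 0 mean level to the mean of days 3 and 7 (y axis, log axis) for 55 histone genes, by where the counted model ends relative to the stem-loop (x axis, number of genes in brackets); points are genes and lines are medians. Medians are 209, 30.4 and 199, and the genes with ratios under 20 are named.

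Hist1h2bc and Hist2h2be have low ratios and no stem-loop in their transcript models. The Hist1h2bc row (chr13:23684199-23692488, plus strand) has 736 counted bases, fewer than its span, since its model is split into exons. The Hist2h2be row (chr3:96221119-96223738, plus strand) has 2620 counted bases, with AATAAA or ATTAAA, the usual polyadenylation signals, in the last 40 bases of a transcript model. Among members with the stem-loop, such a signal was also found for Hist1h1c, Hist3h2a and Hist1h4i, and not for Hist1h1d or Hist1h1e. It was searched in GENCODE M21 transcript models, while levels come from the counted models. Of the 71 members, 47 have the same start and end in both. The M21 models of Hist1h1d and Hist1h1e run 4884 and 1153 bases past the stem-loop, and the counted models 28 and 27. Hist3h2ba (7.83), Hist1h2bp (27.2) and Hist1h2be (30.4) had the signal too. Members with higher ratios that had the signal included Hist1h4a (891), Hist1h4h (188), Hist4h4, Hist1h4j (95.6) and Hist1h2ae (71.8). It was not found for Hist2h3c2, whose ratio is low. The signal was thus present in members with low, middle and high ratios, and its relation to the ratio was not tested.

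RNAs without a poly(A) tail moved with the histone genes between the library series. All 11 genes tested of the list of non-polyadenylated or short noncoding RNAs were lower on day 3 than on day 0 in WT, with a median log2 fold change of -8.91, and all 9 tested in KO, with a median of -10.29. In the day 3 fit between genotypes 3 genes of the list passed the filter, so most passed it here through day 0. Rmrp, the RNA of RNase MRP, was in WT at 2993 ± 993 CPM (SD, n = 4) on day 0 and, over 7 libraries, between 0.0614 and 0.438 CPM on day 3. The summed level of the 21 rows of the list was 16186 to 25979 CPM on day 0 and 1.86 to 19.4 CPM on days 3 and 7. Rnu7, the U7 RNA that guides the cut of histone mRNA, was at 0 in all libraries. The labels name a stranded mRNA kit for all libraries, and the part of the library type in these differences was not tested.

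Genes of S phase with poly(A) tails differed less between day 0 and day 3. Of the 39 in the list, 12 were lower on day 3 in WT, against 25.6% of all genes tested, with a median log2 fold change of -0.24. In KO, 19 were lower, against 23.7% of all genes tested, with a median of -0.36. Mki67 fell by 0.84 (SE 0.17, adjusted p 0.00146 by edgeR) on the log2 scale in WT and by 0.63 (SE 0.16, adjusted p 0.00409 by edgeR) in KO. Slbp was at 35.4 to 39.8 CPM on day 0 and 36.0 to 43.1 CPM on day 3 in WT, with a log2 fold change of 0.04 (SE 0.08, adjusted p 0.671 by edgeR). Of the 11 replication-independent histone genes tested, H3f3b and H2afv were higher and H2afx lower on day 3 in WT. In KO, 4 were lower, H2afx, H1f0, H2afy2 and H2afz, and 0 higher.

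Many H2A and H2B genes sit head to head and share a promoter region, and the 2 genes of such a pair could differ widely in level. There were 14 pairs on opposite strands with start sites within 500 bases, each an H2A with an H2B, at gaps of 172 to 305 bases. In the Hist1h2ac and Hist1h2bc pair, 274 bases apart, the H2B gene was at 94.9 CPM per kilobase on days 3 and 7 and the H2A gene at 0.744. On day 0 they were at 226 and 44.3 CPM per kilobase. In the Hist2h2ac and Hist2h2be pair, 238 bases apart, the H2B gene was at 3.12 and the H2A gene at 0.212 CPM per kilobase on days 3 and 7. On day 0 that order was turned, with 4.11 for Hist2h2be and 55.8 for Hist2h2ac. In the Hist1h2ae and Hist1h2bg pair, whose models are both short, the ratios of day 0 to later levels were 71.8 and 75.9.

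Promoters of 3 members are printed because they cover the leading H1 gene, an H1 gene with a high day 0 ratio, and the region between the leading H2B gene and its H2A neighbour. RefSeq windows of the GRCm38.p6 build run from 250 bases before to 50 after the start. They were searched on both strands for the TATA box (TATAAA), the CCAAT box, the octamer (ATTTGCAT) and the H1 box (AAACACA), each counted on its own. In all, 62 member promoters were found, against 32851 promoters of the same length. The TATA box was in 56.5% of member windows and 13.6% of all windows, and the CCAAT box in 85.5 and 37.4%. The octamer was in 22.6 and 1.74%, and within the set it was in 41.2% of the H2A and 41.2% of the H2B windows and in 0 of the H1, H3 and H4 windows. The H1 box was in 14.5 and 7.18%, and in 5 of 6 H1 windows. Of the 12 H4 windows, 3 held the CCAAT box, against all windows of the other classes. Matches are in capitals, and a match is a description of letters.
Hist1h1c, chr13:23738557-23738856, plus strand: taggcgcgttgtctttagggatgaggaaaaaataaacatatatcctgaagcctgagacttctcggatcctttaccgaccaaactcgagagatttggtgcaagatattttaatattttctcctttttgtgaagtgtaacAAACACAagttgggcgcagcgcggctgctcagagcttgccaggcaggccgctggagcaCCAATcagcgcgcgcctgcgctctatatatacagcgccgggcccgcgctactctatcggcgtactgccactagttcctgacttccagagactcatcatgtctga
Hist1h1e, chr13:23622509-23622808, minus strand: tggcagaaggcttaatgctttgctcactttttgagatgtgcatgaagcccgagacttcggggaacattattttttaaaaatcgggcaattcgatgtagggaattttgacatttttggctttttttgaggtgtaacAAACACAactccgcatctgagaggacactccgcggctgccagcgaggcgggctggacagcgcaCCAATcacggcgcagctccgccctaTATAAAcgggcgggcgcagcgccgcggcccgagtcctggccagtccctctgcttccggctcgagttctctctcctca
Hist1h2ac, chr13:23683910-23684209, minus strand: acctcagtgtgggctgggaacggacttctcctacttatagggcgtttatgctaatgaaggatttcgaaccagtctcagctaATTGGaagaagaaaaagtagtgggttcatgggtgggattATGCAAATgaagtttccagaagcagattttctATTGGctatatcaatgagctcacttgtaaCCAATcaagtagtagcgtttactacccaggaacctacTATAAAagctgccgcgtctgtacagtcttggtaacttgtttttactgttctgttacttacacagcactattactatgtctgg
The Hist1h1c and Hist1h1e windows both hold the H1 box and the CCAAT box, and the Hist1h1e window also holds the TATA box. The Hist1h2ac window overlaps the first bases of the Hist1h2bc row on the other strand at its 5′ end, and holds the octamer, the TATA box and CCAAT boxes in both orientations.

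Members at or near the floor add little to these comparisons. Of the 71 rows, 6 had no count in any library and 9 had 3 counts or fewer in every library. Hist1h1t, an H1 known mainly from testis, was at 0.303 to 1.79 CPM on day 0 and 0 to 0.133 CPM on days 3 and 7. Hist1h2ba, an H2B known from testis, had at most 1 count in any library. Histone genes are also close copies of each other, and reads that match several genes were not counted, as no option for them was set. In 34 members at least 50% of the 50-base stretches of their transcripts also occur in another gene, and in 2 members, Hist2h2aa2 and Hist2h3c1, all do. For Hist1h1c this share was 8.54%, for Hist1h2bc 30.1% and for Hist2h2be 0%, so the leading genes are less open to this than Hist1h4n (85.6%) or Hist1h4k (71.5%), whose levels are uncertain.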

How the data were processed

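RNA of isolated intestinal epithelial cells was sequenced on 38 libraries with paired 50-base reads, per the labels' protocols. The authors deposited raw read counts per gene, 1 file per sequencing lane. Trim Galore, STAR, featureCounts 1.5.2 and the GRCm38 build are named in the submitters' processing notes. Per the file headers, the deposited counts were made with featureCounts 1.6.2, paired, without strand and without counting multi-mapped reads. The labels name a stranded mRNA kit. Antisense partners and near-identical copies can therefore affect single genes.

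Lanes were summed here. Each comparison was fitted with edgeR 4.0.16 (quasi-likelihood test, TMM, filterByExpr, Benjamini-Hochberg adjustment over all genes, called under 0.05) in R 4.3.3 on the compared groups alone, and the interaction on the 29 libraries of days 3 and 7. The procedure was tested on simulated data. Alternatives were the DESeq2 1.42.0 Wald test and its size factors, other filters, robust dispersion, one fit over 29 libraries and each library left out. Members named with values were the 10 highest per kilobase in either library series, the leading calls or smallest p in each comparison, and the 5 highest and 5 lowest day 0 ratios. Members of divergent pairs and a few others named beside them were chosen after their values were seen. Members and lists were chosen with earlier results of these data known.

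Stem-loops were searched in GENCODE M21 transcripts and motifs in RefSeq promoters. Replicate libraries differed by more than sampling noise.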

Additional observations from a re-analysis of the deposited data

Results flagged for a closer look

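In groups of 4 to 10 libraries, a library far from the rest of its group was found in 16 of 139 group and gene combinations tested (11.5%). Chance alone gives about 1 in 20 groups. The values share libraries, so the combinations are not independent. On day 0, d0_WT_31 stood apart from the other WT libraries with a histone share of 0.329% of the count. It also stood apart with Hist1h4c at 168 CPM and Hist1h4a at 41.6 CPM. In the KO group of day 0, d0_KO_32 stood apart with Hist1h4c at 278 CPM, Hist1h4a at 97.8 CPM, Hist1h4n at 60.2 CPM and Hist1h4k at 93.3 CPM, all of them H4 genes.

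On day 7, d7_KO_420 was low among the KO libraries, with Hist2h2be at 2.83 CPM and Hist3h2a at 1.44 CPM. In WT on day 7, d7_WT_386 was high, with Hist1h4i at 8.79 CPM, Hist4h4 at 0.893 CPM and Hist1h2bb at 0.517 CPM. It is also the shallowest library of days 3 and 7. Hist1h2be was highest in d7_WT_370, at 1.64 CPM. Hist1h4d stood apart in d3_WT_381 (0.877 CPM), d3_KO_387 (0.638 CPM) and d7_KO_421 (0.492 CPM).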

How the results depend on the processing

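Over all results and alternatives run, 0 reversed, and 658 kept their direction and their side of the threshold. Without d3_WT_486 and d3_WT_487, a setting chosen after seeing the data, 3 members were called between days 7 and 3 in WT. On day 0, the DESeq2 Wald test called 4 members between genotypes and the fit without a filter called 1. The WT median on day 3 against day 0 was -6.48 with DESeq2 and -6.37 without a filter, where more members were tested. Without the 3 members with the most counts, the mean share of the total count was 0.0041% in WT and 0.00302% in KO on day 3. It was 0.00252 and 0.00223% on day 7, and 0.203 and 0.248% on day 0. Of the counts outside the mitochondrial genome, the mean share was 0.0332% in KO on day 3, 0.0191% in KO on day 7, 0.337% in WT on day 0 and 0.474% in KO on day 0. Leaving out 1 library at a time, members called between genotypes numbered 0 on each day. On day 7 against day 3 they numbered 5 to 9 in WT and 6 to 8 in KO, all of them lower. In those fits, 6.65 to 12.3% of genes in WT and 7.13 to 11.2% in KO were called lower. These fits ended the WT calls of Hist1h1e (adjusted p up to 0.09 by edgeR) and Hist1h4h (0.102), and the KO calls of Hist1h3d (0.0801) and Hist2h2be (0.0602). One fit over 29 libraries ended that of Hist1h1e in KO (0.0532). Low counts limit what can be seen in H2A and H3 genes on days 3 and 7. No paired analysis was possible because the groups share no replicate numbers: each library has a number of its own.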
